A study of Homo sapiens with 9 samples.

Results

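A549 is an established cell line from a human lung adenocarcinoma. The libraries described here are those of A549 transfected with the control plasmid, 3 of the 9 RNA-seq libraries of the series, and they were chosen by their titles and by the label that places them in the control group. The remaining 6 libraries come from cells given a plasmid for LINC00996 or for AP001189.3, and they were not used. Cells were grown in RPMI medium with fetal bovine serum, transfected with jetPRIME, a polymer reagent, and lysed in Trizol. RNA with a poly-A tail was captured and sequenced from both ends of each fragment. In the labels the plasmid is PC3.1 for replicate 1, PC3.2 for replicate 2 and PC3.3 for replicate 3. The study's text speaks of PC3.1 only, and the libraries are treated here as replicates of 1 control plasmid. The time between transfection and lysis is not given in the sources used here. Untransfected A549 was not analysed here, so every level below belongs to cells that had received plasmid DNA and a transfection reagent.

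A549 is widely used as a model of the alveolar type 2 cell, the surfactant-producing cell of the lung, although lines of this kind keep only part of the program of their tissue. The line has inactivating mutations in the STK11 and KEAP1 tumor suppressors and a homozygous deletion around CDKN2A on the short arm of chromosome 9. KEAP1 normally marks the transcription factor NRF2 for degradation, so that cells without working KEAP1 hold a constantly active antioxidant program.

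The counts of a library summed to 17062469 in replicate 1, 16114345 in replicate 2 and 17390680 in replicate 3, over 58735 annotated genes. Levels are given as CPM, counts scaled to a library total of 1000000, and as FPKM, which is CPM divided by the gene's exon length in kilobases and allows levels of different genes to be compared. Values after ± are SDs over the 3 libraries (n = 3). A gene was taken as detected when its CPM was at least 1 in every library, which is 17.1, 16.1 and 17.4 counts in replicates 1 to 3. By this rule 13862 genes were detected, 12393 of them protein-coding (62.1% of the 19951 protein-coding genes), and protein-coding genes held 97.5% ± 0.0852 of the counts. The median detected protein-coding gene stood at 5.61 FPKM, with quartiles of 2.21 and 13.1 FPKM and a range from 0.0545 to 11168 FPKM. Between 1 and 10 FPKM lay 6983 of these genes (56.4%), between 10 and 100 FPKM another 3695 (29.8%), and above 1000 FPKM only 19. This detected-gene median of 5.61 FPKM is the level against which each group of genes is set below, and 6196 of all 19951 protein-coding genes (31.1%) lay above it. The shares of 62.1% detected and 31.1% above the median are the background for every list of protein-coding genes below. Of the detected protein-coding genes 6016 (48.5%) share exon bases with another annotated gene, where reads may not be assigned to either, and the shared part is given beside a named gene where it is large.

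The replicates were compared before they were averaged. For each pair of libraries the chi-square value of their counts per gene was computed over 17960 genes with a mean of at least 5 counts, where counting noise alone gives about 1. The values were 3.21 for replicates 1 and 2, 6.71 for replicates 1 and 3, and 4.32 for replicates 2 and 3, so that all pairs differed by more than counting noise and no library was a copy of another. Among the 4220 genes that averaged 50 CPM or more, the coefficient of variation had a median of 4.71% and was under 10% in 3885 genes (92.1%). Only 15 of them exceeded 20%. The 10 most variable were COX6B1 (ENSG00000126267), RPL23A, TPM2, FTH1 (ENSG00000167996), RPL41, IFITM1, RTN4RL2, ARHGDIA, ATP5MC2 and RPL36, with coefficients from 21.9% to 28.4%, and each was highest in replicate 1 and lowest in replicate 3. FTH1, the ferritin heavy chain, stood at 2178, 1861 and 1307 CPM in replicates 1, 2 and 3. RPL23A has 91 annotated pseudogenes. Across 12376 genes, which are not independent of each other, the log2 ratio of replicate 1 to replicate 3 had a Spearman correlation of 0.347 with GC content, against 0.342 for replicates 1 and 2 and 0.0959 for replicates 2 and 3. The part of GC content in the variable genes was not tested.

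By CPM the most abundant RNAs came from the mitochondrial chromosome and from nuclear genes of several kinds. Genes of the mitochondrial chromosome held 5.32%, 5.66% and 5.26% of the counts in replicates 1, 2 and 3 (mean 5.42% ± 0.215). MT-CO1 (ENSG00000198804), a cytochrome oxidase subunit, was the top gene at 17222 ± 630.1 CPM, followed by MT-RNR2, the large mitochondrial ribosomal RNA, at 8047 ± 314 CPM. MT-ND4, MT-CO2 and MT-CO3 were also among the first 20, at 6683.5 ± 376, 4644 ± 240 and 2922 ± 300 CPM. Among the nuclear genes FN1 (ENSG00000115414), which codes for the matrix protein fibronectin, led by CPM with 7119, 7056 and 6819 CPM in replicates 1 to 3. IGFBP3 (ENSG00000146674), which binds insulin-like growth factors outside the cell, followed at 4391 ± 292 CPM. Then came the translation factor EEF1A1 at 4039 ± 121 CPM, the keratin KRT8 at 3979.6 ± 103 CPM, the glycolytic enzyme PKM at 3948 ± 108 CPM and the actin ACTG1 at 3591 ± 249 CPM. The counts were spread over many genes. The 20 most abundant genes held 9.39% ± 0.156 of the counts and the 100 most abundant 21.8% ± 0.167, while it took 815 genes to reach 50% of the counts and 5829 to reach 90%.

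Secreted and immune genes also stood in this top group. Complement C3 (ENSG00000125730), the central component of the complement cascade, was at 3302 ± 99.98 CPM, and the neutrophil-attracting chemokine CXCL5 (ENSG00000163735) at 3244 ± 91.8 CPM. TGM2, a protein-crosslinking transglutaminase, was at 3081 ± 90.7 CPM, the retinal dehydrogenase ALDH1A1 at 2922 ± 56.7 CPM, and the laminin chain LAMA5 at 2660.2 ± 174 CPM. RNF213 (ENSG00000173821), a very large ubiquitin ligase induced by interferon, ranked 11 by CPM at 3347 ± 70.8 CPM but stood at only 117 ± 2.48 FPKM, because its exons span 28570 bases. Its place in the CPM order thus rests on its length.

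Per unit of length the order was different. Among nuclear protein-coding genes FTL (ENSG00000087086), the ferritin light chain that stores iron, led at 2618, 2629.6 and 2654 FPKM in replicates 1, 2 and 3, and the interferon-inducible IFI6 (ENSG00000126709) ranked 2 at 1636, 1617 and 1754 FPKM. The 3 libraries of each gene lay close together, and no library of IFI6 reached any library of FTL. CXCL5 ranked 3 at 1278 ± 36.2 FPKM, then ACTG1 at 1199.9 ± 83.2 FPKM and the ubiquitin-like ISG15 (ENSG00000187608) at 1112 ± 90.6 FPKM. The SDs of ACTG1 and ISG15 overlap, but ACTG1 was the higher of the 2 in each library. ALDH1A1 (1026 ± 19.9 FPKM), the actin-binding peptide TMSB10 (1022 ± 169.9 FPKM), IGFBP4 (976 ± 47.9 FPKM), IGFBP3 (961 ± 63.8 FPKM) and GAPDH (956 ± 15.4 FPKM) completed the first 10. Places 11 to 20 were held by ACTB, FTH1, LGALS3BP, CCL5, TMSB4X, KRT18, EEF1A1, RPL13A, the metallothionein MT2A and the lysosomal PSAP, from 898 down to 586 FPKM. For FTH1, 62.4% of the exon bases also belong to exons of other annotated genes, and its value is uncertain for this reason. The same caution holds for abundant genes with many processed copies, such as GAPDH with 62 annotated pseudogenes and EEF1A1 with 39. The plot of the most abundant genes shows both orders side by side.

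**Figure D1:**
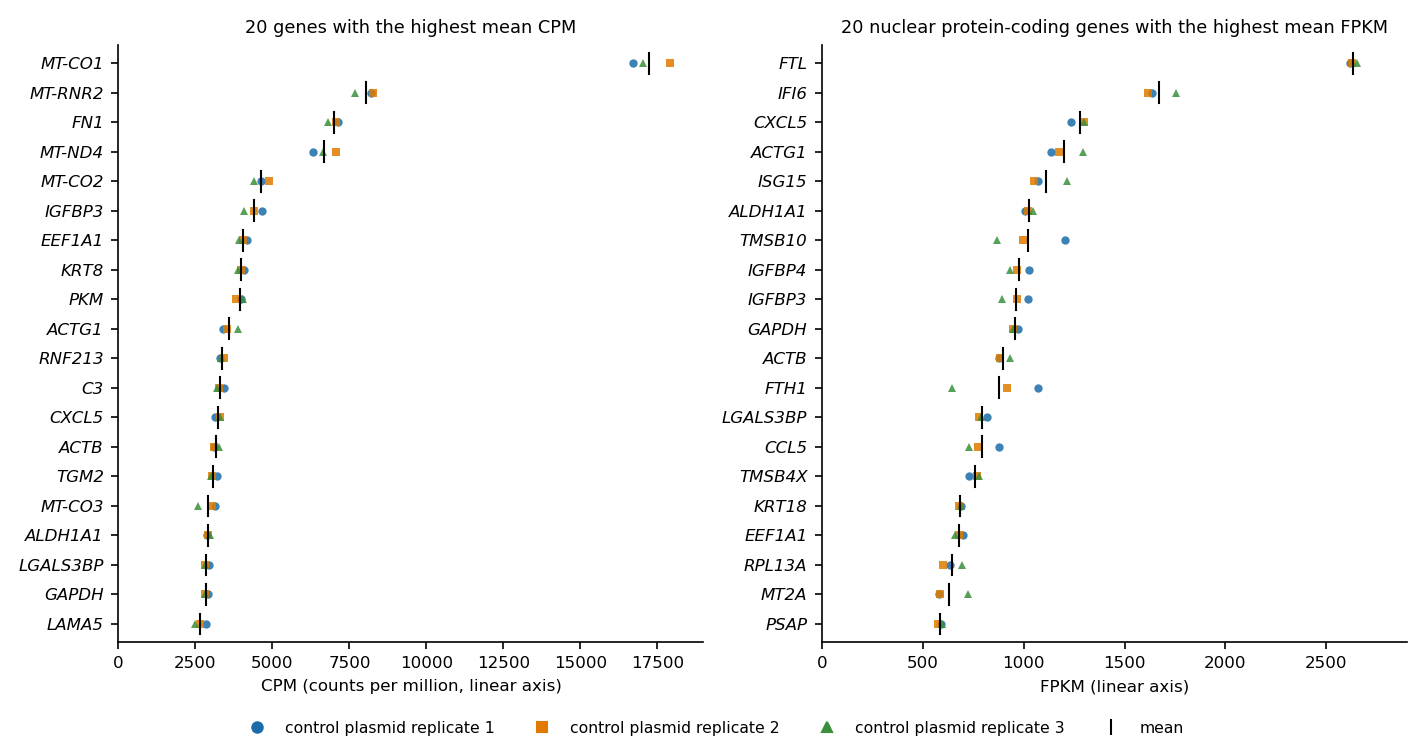
The 20 genes with the highest mean CPM (left, CPM axis) and the 20 nuclear protein-coding genes with the highest mean FPKM (right, FPKM axis), where dots are the 3 replicates and bars their mean. MT-CO1 leads by CPM at 17222 and FTL by FPKM at 2634, and the dots of FTH1 are the most widely spread on the right.

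The epithelial identity of the cells was clear in the keratins, while the markers of mature lung cells were mostly near 0. Simple epithelial cells are held together by keratin filaments, desmosomes and E-cadherin. Of 20 general epithelial genes, 15 were detected and 12 lay above the detected-gene median, against 62.1% and 31.1% of all protein-coding genes. The list median was 20.05 FPKM. KRT18 (ENSG00000111057) and KRT8 (ENSG00000170421), the keratin pair of simple epithelia, stood at 688, 679.9 and 689 and at 594, 576 and 564 FPKM in replicates 1 to 3. KRT7 was at 400.2 ± 18.2 FPKM, KRT19 at 127 ± 1.492 FPKM, the desmosomal JUP at 113 ± 8.64 FPKM and DSP at 54.05 ± 2.001 FPKM, and CDH1, which codes for E-cadherin, at 51.3 ± 0.797 FPKM. Of the tight junction genes, CLDN1 was at 68.6 ± 1.64 FPKM and TJP1 at 28.9 ± 1.46 FPKM, but CLDN3 only at 5.88 ± 1.27 FPKM, CLDN4 at 4.86 ± 0.337 FPKM and OCLN at 3.33 ± 0.387 FPKM, and CLDN7 was not detected, at 0.205 ± 0.0838 FPKM. EPCAM, a surface marker of most carcinomas, was at 5.26 ± 0.210 FPKM. Among the regulators, the transcription factor ELF3 stood at 38.6 ± 1.76 FPKM. GRHL2 (ENSG00000083307), a transcription factor of epithelial junction genes, had 0 counts in every library, and the epithelial splicing factors ESRP1 and ESRP2 had 3, 5 and 2 and 7, 1 and 8 counts. A count of 0 here allows up to 0.176, 0.186 and 0.173 CPM in replicates 1, 2 and 3, which is 3 counts of the library total and covers counting error only.

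Among alveolar type 2 genes, the surfactant genes and NKX2-1 were nearly silent while 4 of 13 genes (30.8%) lay above the detected-gene median, about the share of all protein-coding genes. Surfactant proteins coat the alveolar surface, and NKX2-1 is the transcription factor that specifies lung epithelium. The RNA of the 5 surfactant proteins was not detected: SFTPC had 1, 0 and 1 counts in replicates 1, 2 and 3, SFTPA1 0, 1 and 0, SFTPB 4, 3 and 2, SFTPA2 2, 1 and 9 and SFTPD 4, 4 and 6. NKX2-1 (ENSG00000136352) had 3, 0 and 1 counts. The surfactant genes and NKX2-1 were therefore at or near the floor in a line often used to model the cell type. In bulk RNA, fewer cells that express a gene and less RNA per cell cannot be told apart. Of the 13 type 2 genes, 5 were detected. The lysosomal membrane gene LAMP3, which interferon also induces, stood at 61.5 ± 1.14 FPKM, the lipid-remodelling LPCAT1 at 35.97 ± 2.24 FPKM, the lamellar body transporter ABCA3 at 10.5 ± 0.395 FPKM and the transcription factor ETV5 at 9.62 ± 0.566 FPKM, while the protease NAPSA was at 0.401 ± 0.0960 FPKM.

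Most markers of the other lung epithelia were sparse too. Of 7 alveolar type 1 genes, CAV1, which shapes membrane caveolae and is broadly expressed, stood at 59.3 ± 2.73 FPKM and gave 97.2% of the list's summed CPM. AGER and RTKN2 were detected below the detected-gene median, at 1.53 ± 0.085 and 0.381 ± 0.095 FPKM. PDPN, CLIC5, HOPX and AQP5 were at the floor of at most 3 counts in every library. In the airway list of 9 genes the gel-forming mucins MUC5B and MUC5AC were high, at 68.97 ± 9.05 and 59.03 ± 1.86 FPKM. TPPP3 was at 7.47 ± 0.82 FPKM and BPIFB1 at 0.664 ± 0.15 FPKM. The club cell secretoglobins SCGB1A1 and SCGB3A1 and FOXJ1, the regulator of motile cilia, had 0 counts. Of these 9 airway genes 4 were detected and 3 (33.3%) lay above the detected-gene median, against 31.1% of all protein-coding genes. Among 10 squamous and basal genes, SOX2 (10.1 ± 0.236 FPKM) and TP63 (6.03 ± 0.105 FPKM) were detected, but the basal keratin KRT5 had 0, 2 and 1 counts, the desmosomal DSG3 1, 0 and 1 and PKP1 0, 0 and 1. The squamous keratins KRT14 and KRT6A were also low, at 0.444 ± 0.0835 and 0.301 ± 0.131 FPKM. None of the 10 neuroendocrine genes exceeded the detected-gene median, and NEUROD1, GRP and CALCA were at 0. The granule protein CHGB was the highest of them at 3.87 ± 0.488 FPKM.

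Mesenchymal RNAs were present beside the epithelial ones. Of 13 genes of this list 12 were detected and 6 lay above the detected-gene median, against 62.1% and 31.1% of all protein-coding genes. The list median of 3.35 FPKM was below the detected-gene median, and FN1 alone gave 88.4% of the list's summed CPM. FN1 stood at 404 ± 9.13 FPKM, the calcium-binding S100A4 at 279 ± 36.7 FPKM, the intermediate filament gene VIM at 80.6 ± 2.09 FPKM and CDH2, which codes for N-cadherin, at 21.8 ± 0.820 FPKM. CDH1 was above CDH2 in every library, with 51.6, 51.9 and 50.4 against 20.98, 22.6 and 21.9 FPKM in replicates 1 to 3. The transcription factors that drive the mesenchymal program were lower: TWIST2 at 8.33 ± 0.432 FPKM, ZEB1 at 5.73 ± 0.142 FPKM, TWIST1 at 2.02 ± 0.162 FPKM, SNAI1 at 1.28 ± 0.486 FPKM, ZEB2 at 0.320 ± 0.0237 FPKM and SNAI2 with 5, 4 and 10 counts. Thus TWIST2 and ZEB1 alone among these 6 factors had a mean above 5.61 FPKM, and ZEB1 lay close to it.

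A further set of regulators belonged to liver and gut. FOXA, GATA and HNF4 factors pattern the endoderm, from which lung, liver and gut all arise. Of 14 regulators 11 were detected and 5 (35.7%) lay above the detected-gene median, against 31.1% of all protein-coding genes. The list was led by SOX9 (26.9 ± 0.586 FPKM), FOXA2 (10.4 ± 0.746 FPKM), FOXA1 (7.54 ± 0.749 FPKM) and GATA6 (7.27 ± 0.215 FPKM). HNF4A was at 1.98 ± 0.378 FPKM and HNF4G at 1.92 ± 0.175 FPKM, while the intestinal CDX1 was at 0 and CDX2 had 8, 13 and 14 counts. Of 21 products of these organs 11 were detected, against 62.1% of all protein-coding genes, and 8 (38.1%) lay above the detected-gene median. Among them the carcinoembryonic adhesion gene CEACAM6 was the highest at 289, 296 and 301 FPKM in replicates 1, 2 and 3. The mucosal peptide TFF1 followed at 97.1 ± 8.001 FPKM, CEACAM5 at 39.3 ± 1.67 FPKM and the plasma adhesion protein VTN at 36.2 ± 4.70 FPKM. All 3 fibrinogen chains were detected, with FGA at 25.4 ± 0.857 FPKM, FGG at 18.02 ± 1.12 FPKM and FGB at 11.8 ± 0.253 FPKM. The plasma protein genes APOH, AMBP and SERPINA1 were detected at lower levels, at 1.93 ± 0.378, 0.822 ± 0.233 and 0.403 ± 0.0510 FPKM. Others were not detected: ALB had 5, 1 and 5 counts, TF 4, 4 and 6, APOB 0, 1 and 0, and TTR, APOA1 and the gut peptide TFF3 had 0. The hepatic signal was therefore limited to some members of the list.

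Most markers of other cell types were at or near 0. Of 28 leukocyte, endothelial, fibroblast and erythroid markers, 15 were at the floor, 6 were detected and none exceeded the detected-gene median. The summed level of the 11 leukocyte genes was 20.5, 17.4 and 17.4 CPM in replicates 1 to 3, of which CD14, a lipopolysaccharide co-receptor, gave 56.2% at 5.50 ± 0.167 FPKM, just under the median, and the defining PTPRC, CD3D and MS4A1 were at 0. The 5 endothelial genes summed to 11.7, 12.4 and 13.05 CPM with PECAM1 as the top gene. The 7 fibroblast genes summed to 23.4, 26.5 and 23.6 CPM with COL1A1 as the top gene at 2.12 ± 0.146 FPKM, while DCN and COL1A2 had 0, 1 and 0 counts each. Of the 5 erythroid genes, the globins HBA1, HBA2 and HBB were at 0. For scale, 10 widely used reference genes had a median of 288 FPKM, from TBP at 6.40 ± 0.849 FPKM to GAPDH at 956 ± 15.4 FPKM. The lineage plot sets the marker lists side by side.

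**Figure D2:**
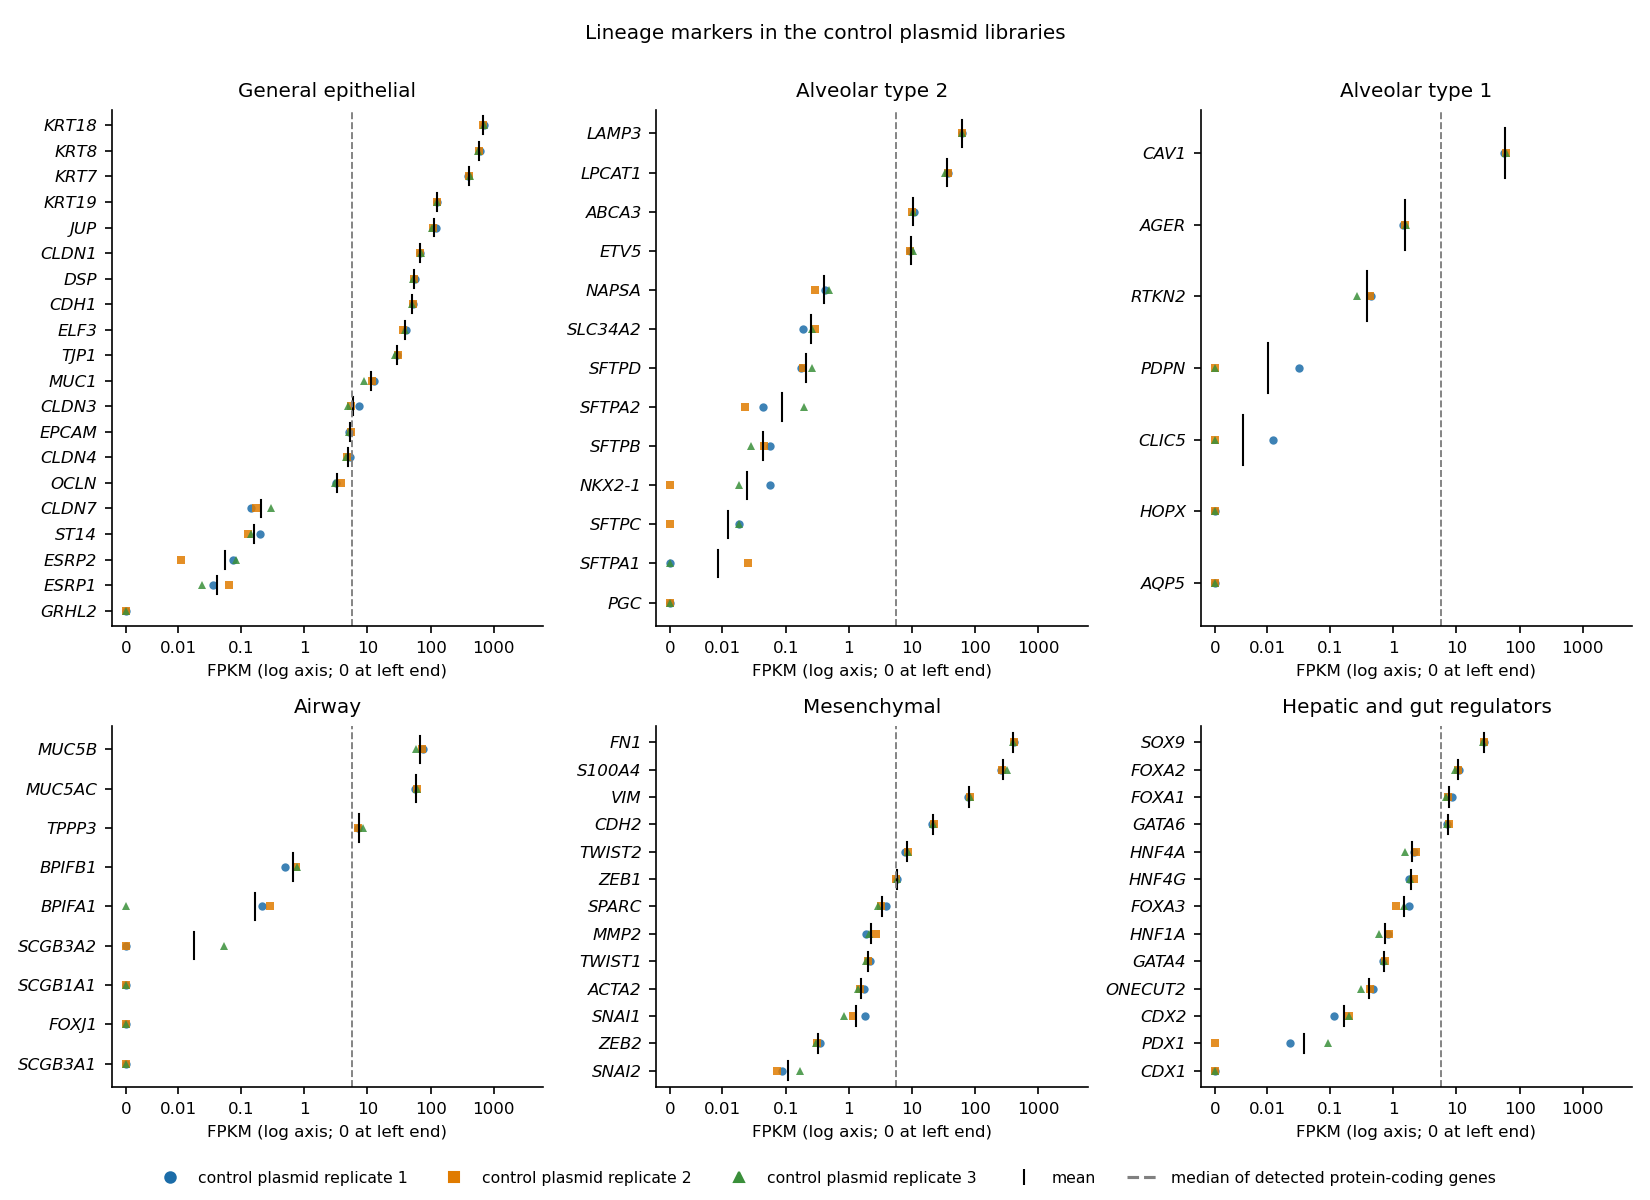
FPKM of lineage markers on a log axis in 6 panels, where dots are the 3 replicates, short bars their mean, values of 0 sit at the left edge and the dashed line is the median of detected protein-coding genes (5.61 FPKM). Keratins reach 686 FPKM, whereas the surfactant genes and NKX2-1 lie under 1 FPKM.

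The interferon system was described from its ligands to its targets. Type I interferons (alpha, beta and relatives) and type III interferons (lambda) are induced when sensors such as RIG-I detect foreign nucleic acid, and they signal through JAK kinases to a complex that contains STAT2 and IRF9. That complex binds an element in the promoters of interferon-stimulated genes (ISGs), whose products block viral entry, translation and replication. STAT2, IRF7 and RIG-I are themselves products of ISGs. Of 22 interferon genes 15 were at the floor, among them 12 of the 13 alpha genes, IFNG, IFNK and IFNW1. The epithelial type III genes were the highest: IFNL1 (ENSG00000182393) at 9.85, 8.33 and 10.9 FPKM in replicates 1, 2 and 3, IFNL2 at 10.5, 8.84 and 7.26 FPKM and IFNL3 at 8.74, 6.92 and 8.88 FPKM. These 3 lambda genes are close copies of each other, so that reads may have been divided between them, but each of the 3 means was above the detected-gene median. The other lambda gene, IFNL4, had 2, 11 and 9 counts. IFNB1 (ENSG00000171855), the beta interferon gene, had 18, 7 and 26 counts, and IFNE, a type I gene of epithelia, had 63, 66 and 53 counts. Per unit of length IFNL1, IFNL2 and IFNL3 thus stood above IFNB1 in every library and IFNL4 below it, with IFNB1 at 1.23, 0.506 and 1.74 and IFNL4 at 0.0638, 0.372 and 0.282 FPKM.

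All 14 receptor and signaling genes were detected. The subunits of the interferon gamma receptor were higher than those of the type I receptor, with IFNGR1 at 149 ± 3.05 FPKM, IFNGR2 at 41.6 ± 2.34 FPKM and IFNAR1 at 16.3 ± 0.879 FPKM. IFNAR2 was at 1.41 ± 0.386 FPKM and IL10RB, the shared chain of the lambda receptor, at 0.716 ± 0.296 FPKM, but 83.2% and 38.1% of their exon bases are shared with other genes, and both values are uncertain. The lambda-specific chain IFNLR1, which shares none, was at 1.499 ± 0.0683 FPKM. STAT2 (ENSG00000170581) was at 58.4, 57.6 and 59.1 FPKM in replicates 1, 2 and 3. Of the kinases, JAK1 was at 46.3 ± 0.345 FPKM, TYK2 at 7.996 ± 0.737 FPKM and JAK2 at 4.69 ± 0.361 FPKM. IRF9 was only at 1.75 ± 0.198 FPKM, with 48.4% of its exon bases shared. The feedback inhibitors SOCS3 and SOCS1 stood at 21.6 ± 1.11 and 3.08 ± 0.464 FPKM.

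Genes for sensors of RNA and of DNA both spanned a wide range of levels. Of 19 sensing genes 15 were detected and 12 lay above the detected-gene median, against 62.1% and 31.1% of all protein-coding genes. DDX58 (ENSG00000107201), which codes for RIG-I, stood at 162, 174 and 188 FPKM in replicates 1, 2 and 3, the RNA sensor IFIH1 (MDA5) at 53.04 ± 0.730 FPKM, and the transcription factor IRF7 at 104 ± 8.85 FPKM. The RNA sensors TLR3 and DHX58 (LGP2) were lower, at 9.40 ± 0.771 and 8.14 ± 1.07 FPKM. The adaptor MAVS was at 13.9 ± 0.580 FPKM and the kinase TBK1 at 17.4 ± 0.337 FPKM. On the DNA side, CGAS, which makes a cyclic dinucleotide when it meets cytosolic DNA, was at 5.32 ± 0.443 FPKM, and TMEM173, which codes for its partner STING, at 3.11 ± 0.328 FPKM, both under the median of 5.61 FPKM. The nuclear DNA sensor IFI16 was higher at 41.4 ± 0.984 FPKM. ZBP1 was at 0.815 ± 0.204 FPKM. AIM2 had 2, 1 and 0 counts, TLR7 0, 0 and 2 and TLR9, which shares 86.3% of its exon bases with other genes, 2, 0 and 2. TREX1, a DNA exonuclease, had 0 counts, but all of its exon bases are shared with other genes, so that reads from it may not have been assigned to it.

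ISG RNA was abundant. All 66 genes of the list were detected and 61 lay above the detected-gene median, against 62.1% and 31.1% of all protein-coding genes. The list median was 45.5 FPKM against 5.61 FPKM over all detected protein-coding genes. The summed level of the ISGs was 29967, 29956 and 30770.3 CPM in replicates 1, 2 and 3, with a mean of 30231 ± 467 CPM or 3.02% of all counts. IFI6, a protein of mitochondria and endoplasmic reticulum that limits viral replication, was the top member at 1669 ± 74.1 FPKM. ISG15, which is attached to other proteins like ubiquitin, stood at 1070.3, 1049.8 and 1216 FPKM in the 3 libraries. The secreted LGALS3BP was at 796 ± 20.8 FPKM, and the IFIT genes, whose products bind foreign RNA, were at 388 ± 21.6 FPKM for IFIT3, 297 ± 11.99 FPKM for IFIT1 and 262 ± 9.94 FPKM for IFIT2. LY6E was at 289 ± 19.8 FPKM. IFITM1 (ENSG00000185885), which blocks viral entry at the membrane, stood at 298, 255 and 188 FPKM and was among the 10 most variable genes, with 32.5% of its exon bases shared. The 5 members under the median were MX2 (5.18 ± 0.324 FPKM), RTP4 (4.70 ± 1.05 FPKM), APOL3 (3.34 ± 0.272 FPKM), EPSTI1 (2.11 ± 0.168 FPKM) and GBP5 (1.61 ± 0.251 FPKM). When the 26 members that share exon bases with another gene are left out, the summed level is 18573 CPM. With no untransfected library, these levels cannot be read as induced or not induced by the transfection, and the transfection's part in them was not tested.

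Promoter sequence is shown for the 3 most abundant genes among the ISGs and the NF-kB target cytokines, because their RNAs rank among the first 5 nuclear protein-coding genes by FPKM. Each window runs from 250 bases before to 50 bases after the start of the gene in RefSeq on GRCh38.p14, written 5′ to 3′ along the gene. IFI6 lies at chr1:27672143-27672442 (minus strand), ISG15 at chr1:1013247-1013546 (plus strand) and CXCL5 at chr4:73998628-73998927 (minus strand). Capitals mark matches to GAAANNGAAA, a core of the interferon-stimulated response element, in IFI6 and ISG15, and a match to GGANTTTCC, a core of the NF-kB element, in CXCL5. Both strands were searched.
IFI6: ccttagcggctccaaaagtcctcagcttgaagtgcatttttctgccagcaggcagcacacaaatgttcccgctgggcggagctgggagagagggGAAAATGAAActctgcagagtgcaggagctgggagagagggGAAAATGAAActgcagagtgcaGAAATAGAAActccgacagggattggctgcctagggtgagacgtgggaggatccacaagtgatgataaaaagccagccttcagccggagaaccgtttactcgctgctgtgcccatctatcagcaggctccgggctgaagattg
ISG15: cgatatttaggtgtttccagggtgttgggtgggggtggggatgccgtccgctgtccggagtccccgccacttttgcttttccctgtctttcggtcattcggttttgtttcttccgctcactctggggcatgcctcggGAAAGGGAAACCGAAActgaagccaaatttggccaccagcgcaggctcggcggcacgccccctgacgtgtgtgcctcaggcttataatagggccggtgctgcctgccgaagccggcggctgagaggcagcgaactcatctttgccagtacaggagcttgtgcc
CXCL5: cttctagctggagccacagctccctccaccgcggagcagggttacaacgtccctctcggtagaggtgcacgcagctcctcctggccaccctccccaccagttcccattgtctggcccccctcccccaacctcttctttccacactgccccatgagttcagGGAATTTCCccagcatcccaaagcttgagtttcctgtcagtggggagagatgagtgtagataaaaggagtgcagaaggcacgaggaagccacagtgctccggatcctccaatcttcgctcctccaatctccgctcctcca
IFI6 held 3 matches, which begin 156, 115 and 93 bases before the start, ISG15 held 2 that overlap each other and begin 113 and 107 bases before the start, and CXCL5 held 1 that begins 90 bases before the start. Of the 66 ISGs, 50 matched a promoter entry by symbol, and GAAANNGAAA was found in 34 of these 50 genes (68.0%), against 1195 of all 27305 genes with a promoter entry (4.38%). Of the 18 NF-kB target cytokines 15 matched an entry, and GGANTTTCC was found in 9 of the 15 (60.0%), against 2.01% of all genes. GAAANNGAAA was found in none of those 15 cytokine genes, and GGANTTTCC in 2 of the 50 ISGs. In the list of NF-kB targets in adhesion and survival, GGANTTTCC was found in 1 of 10 genes and GAAANNGAAA in 2. All 3 lists hold genes known as targets of these factors, and a match describes the letters of the window and is no evidence of binding.

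Chemokines and antigen presentation genes downstream of interferon were uneven. CCL5 (ENSG00000271503), which attracts T cells and monocytes, stood at 876, 774 and 729 FPKM in replicates 1, 2 and 3. The CXCR3 ligands were far lower, with CXCL10 at 30.6 ± 0.819 FPKM, CXCL11 at 14.8 ± 0.456 FPKM and CXCL9, a gene mainly induced by interferon gamma, at 0 counts in every library. CX3CL1 was at 11.8 ± 0.952 FPKM. In the class I pathway, which presents peptides to cytotoxic T cells, B2M was at 382 ± 15.8 FPKM, HLA-C at 303 ± 21.03 FPKM, HLA-E at 187 ± 5.47 FPKM and HLA-B at 177 ± 6.59 FPKM. The HLA genes resemble each other and vary between people and lines, so that their values are uncertain. The peptide transporter TAP1 stood at 91.5 ± 4.70 FPKM, its partner TAP2 at 14.1 ± 0.116 FPKM with 32.3% of its exon bases shared, and the loading factor TAPBP at 88.2 ± 5.23 FPKM. NLRC5, the regulator of class I genes, was at 28.2 ± 0.616 FPKM. Class II genes were at or near 0: of 6 genes, 5 were at the floor and HLA-DPA1 had 0, 4 and 4 counts, and their regulator CIITA had 40, 60 and 51 counts. Their chaperone CD74 was nonetheless detected at 4.62 ± 0.454 FPKM.

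The immune molecules that the study places in its account of lung cancer had the following levels. CD274, which codes for the checkpoint ligand PD-L1, stood at 9.10, 9.61 and 11.1 FPKM in replicates 1, 2 and 3, above PDCD1LG2 (PD-L2) at 1.35 ± 0.359 FPKM in every library. IDO1, which degrades tryptophan, was at 29.1 ± 2.93 FPKM and STAT3, a transcription factor of interleukin 6 signaling, at 49.4 ± 0.0895 FPKM. The leukocyte kinases LCK and SYK had 0, 1 and 2 and 4, 0 and 1 counts. PD-L1 and STAT3 RNA therefore lay above the detected-gene median, and the RNA of both kinases was at or near the floor. The study linked PD-L1, LCK and SYK to LINC00996 by correlation with protein levels in tumors of patients. RNA levels of a cell line do not bear on that link.

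NF-kB genes formed the other immune program with high levels. NF-kB dimers of REL family subunits are held in the cytoplasm by inhibitor proteins until kinases mark these for degradation, and the inhibitor genes are themselves NF-kB targets, which closes a feedback loop. All 5 subunit genes were detected, with NFKB2 at 77.6 ± 4.01 FPKM, RELA at 36.05 ± 2.88 FPKM, RELB at 28.2 ± 1.93 FPKM, NFKB1 at 17.6 ± 1.20 FPKM and REL, with 43.3% of its exon bases shared, at 2.75 ± 0.182 FPKM. Thus NFKB2 and RELB, which form the dimer of the non-canonical branch, were both above NFKB1. Of 19 inhibitors and kinases 17 lay above the detected-gene median, against 31.1% of all protein-coding genes. BIRC3 (ENSG00000023445), a ubiquitin ligase at the receptor complex, was at 135, 132 and 135 FPKM in replicates 1, 2 and 3, and NFKBIA (ENSG00000100906), the main inhibitor, at 139.6, 125 and 104 FPKM. TNIP1 stood at 105 ± 6.33 FPKM and TNFAIP3, which codes for the deubiquitinase A20, at 77.4 ± 4.95 FPKM. The IKK kinase genes were lower than these, with CHUK at 6.85 ± 0.434 FPKM, IKBKB at 6.12 ± 0.141 FPKM and their scaffold IKBKG at 3.70 ± 0.341 FPKM, while the receptor-associated kinase genes IRAK2 and IRAK1 stood at 72.03 ± 2.01 and 46.6 ± 1.62 FPKM.

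All 18 NF-kB target cytokines were detected, and 12 lay above the detected-gene median, against 62.1% and 31.1% of all protein-coding genes. Their summed level was 5963, 6027 and 6199.9 CPM in replicates 1, 2 and 3, with a mean of 6063 ± 122 CPM, and CXCL5 alone gave 53.5% of it. Neutrophil-attracting chemokines led the list, although CXCL6, another of this kind, was only at 3.15 ± 0.363 FPKM, under the detected-gene median. CXCL5 stood at 1236, 1301 and 1297 FPKM in replicates 1, 2 and 3, CXCL1 (ENSG00000163739) at 583, 552 and 592 FPKM and CXCL8 (ENSG00000169429), which codes for interleukin 8, at 399, 403 and 462 FPKM, and the libraries of CXCL5 did not overlap those of the other genes. CXCL2 (154 ± 7.30 FPKM), the monocyte attractant CCL2 (80.6 ± 1.98 FPKM), CXCL3 (71.6 ± 1.63 FPKM), the macrophage growth factor CSF1 (45.1 ± 3.51 FPKM) and CCL20 (43.7 ± 3.36 FPKM) followed. The classical inflammatory cytokines were much lower. IL6 was at 7.57 ± 1.29 FPKM, IL1A at 12.8 ± 0.274 FPKM, IL1B at 3.28 ± 0.638 FPKM and TNF at 3.10 ± 0.321 FPKM. Among 11 targets in adhesion and survival, PTGS2 (ENSG00000073756), the inducible cyclooxygenase, was the highest at 407, 409.6 and 397 FPKM. SOD2, a mitochondrial superoxide dismutase, was at 102 ± 2.95 FPKM, CD44 at 101 ± 1.54 FPKM, the urokinase gene PLAU at 58.3 ± 2.27 FPKM and ICAM1 at 39.2 ± 5.71 FPKM. PLAU shares 31.05% of its exon bases with other genes. The endothelial-type adhesion genes VCAM1 and SELE were only at 1.59 ± 0.211 and 0.921 ± 0.140 FPKM, and the protease MMP9 had 10, 10 and 5 counts.

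**Figure D3:**
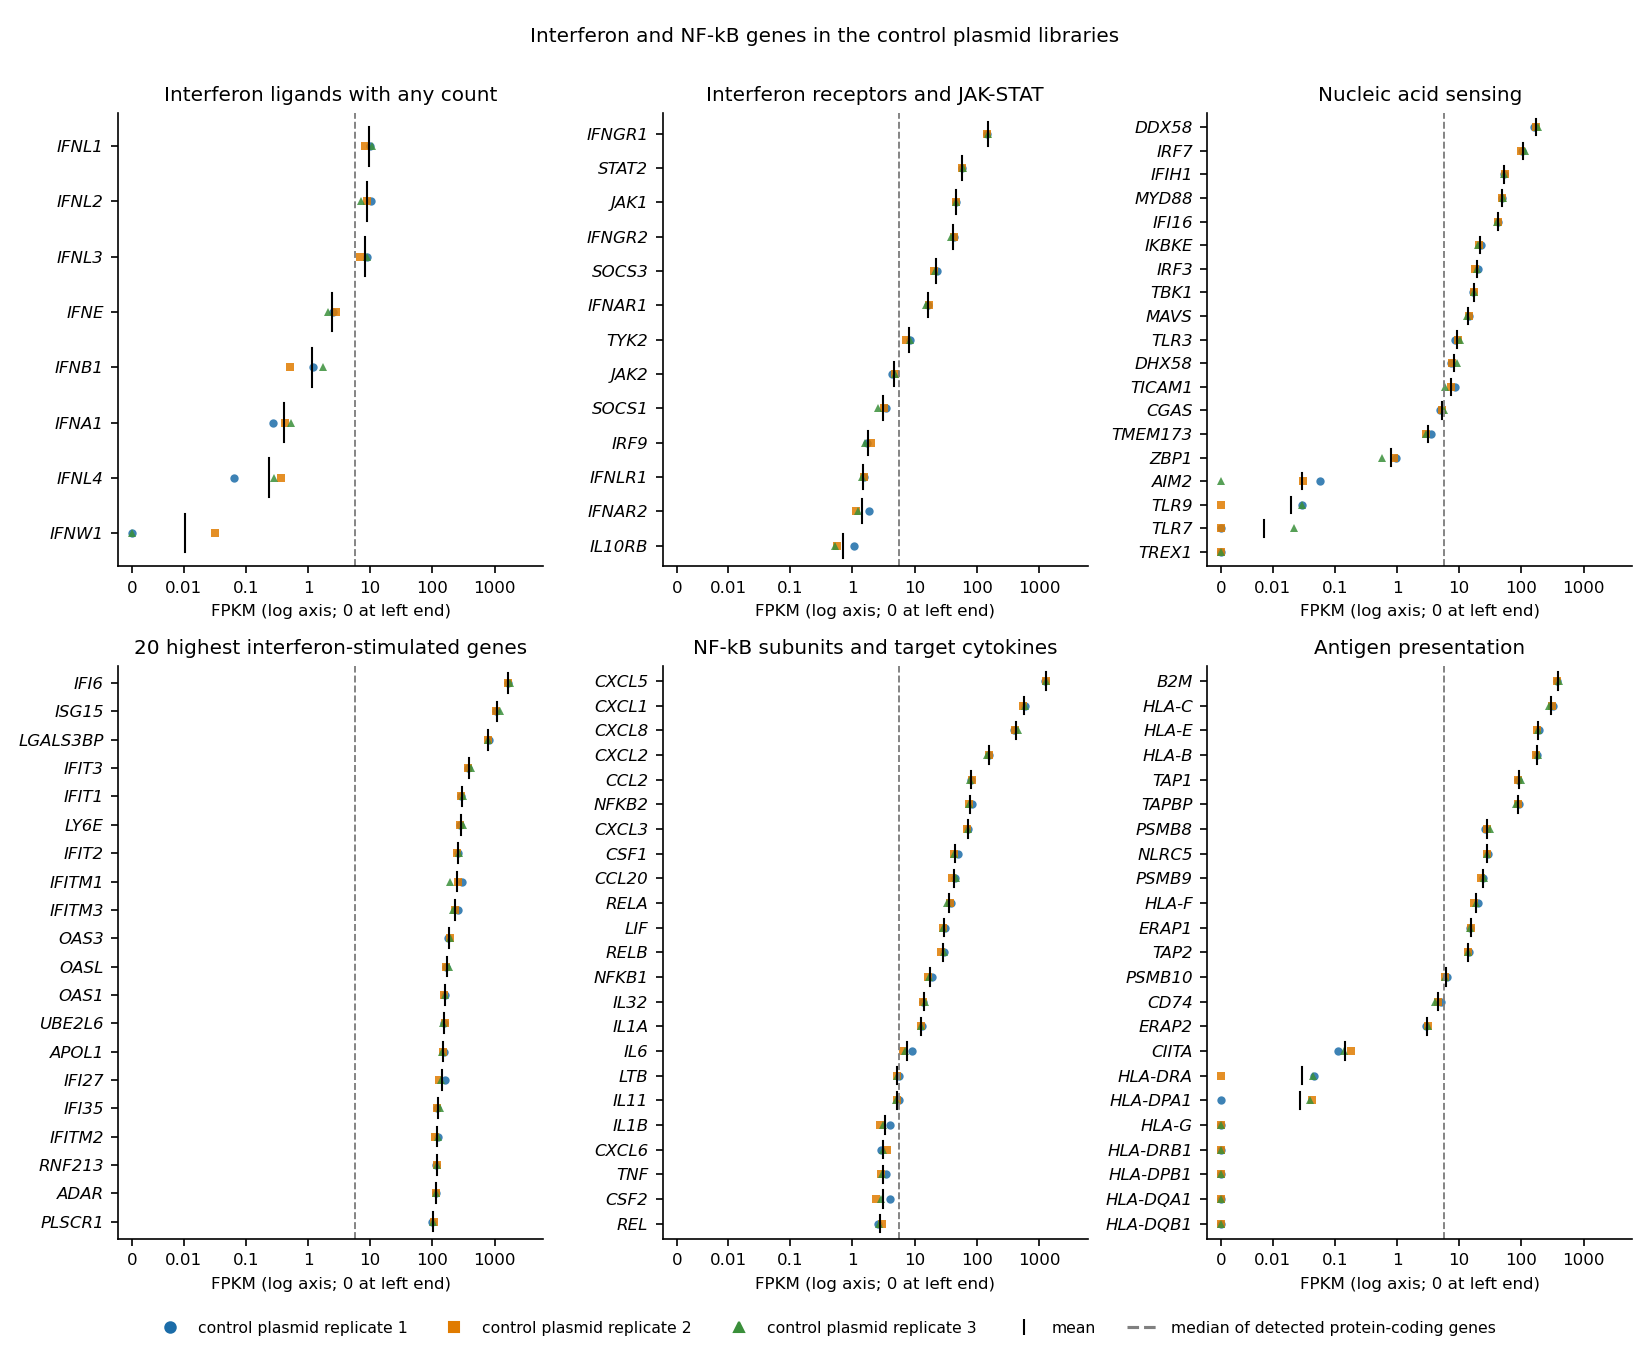
FPKM of interferon and NF-kB genes on a log axis in 6 panels, where dots are the 3 replicates, short bars their mean, values of 0 sit at the left edge and the dashed line is the median of detected protein-coding genes (5.61 FPKM). IFI6 reaches 1669 FPKM and CXCL5 1278 FPKM, while IFNA1 is the only interferon alpha gene drawn, the others having no counts.

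Among the metabolic lists, mitochondrially encoded genes, NRF2 targets and the pentose phosphate pathway had the highest medians, and glycolysis held some of the most abundant single enzymes. Glycolysis splits glucose into pyruvate, and lactate dehydrogenase and monocarboxylate transporters then dispose of it as lactate. Of 32 genes for glucose uptake and glycolysis, 22 were detected and 21 (65.6%) lay above the detected-gene median. Over all protein-coding genes the shares were 62.1% detected and 31.1% above that median. The summed level of the glycolysis list was 18447, 17942 and 18169 CPM in replicates 1, 2 and 3. This sum falls to 7908 CPM when members sharing exon bases with other genes are left out. GAPDH was at 956 ± 15.4 FPKM, PKM at 461 ± 12.6 FPKM, LDHA at 427 ± 4.95 FPKM, ENO1 at 394 ± 10.3 FPKM, PGK1 at 279 ± 10.97 FPKM, PGAM1 at 262 ± 5.32 FPKM, TPI1 at 219 ± 17.2 FPKM and GPI at 128 ± 14.2 FPKM. In several enzyme families a single form prevailed. LDHA stood at 422, 431 and 428 FPKM in replicates 1, 2 and 3 against 7.90, 9.65 and 8.96 FPKM for LDHB, which shares 33.4% of its exon bases with other genes, and PKM stood high while the liver form PKLR had 2, 0 and 2 counts. The platelet-type phosphofructokinase PFKP was at 119 ± 3.55 FPKM, above PFKL at 13.5 ± 0.799 FPKM and PFKM at 6.61 ± 0.290 FPKM. HK1 was at 23.8 ± 0.938 FPKM and HK2 at 8.55 ± 0.511 FPKM. The glucose transporters SLC2A1 (GLUT1) and SLC2A3 (GLUT3) were at 103 ± 6.78 and 61.5 ± 3.77 FPKM, and the lactate exporter SLC16A3 was at 42.3 ± 1.83 FPKM. ALDOA (ENSG00000149925), usually the main aldolase outside the liver, was only at 3.96 ± 1.16 FPKM, but 53.5% of its exon bases are shared with other genes and its level is uncertain. Of 6 gluconeogenic genes only PC and PCK2, at 11.7 ± 1.004 and 7.48 ± 0.932 FPKM, were detected, and G6PC was at 0.

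The NRF2 program was also high. NRF2, encoded by NFE2L2 (ENSG00000116044), drives genes for glutathione, quinone detoxification, iron storage and NADPH supply. All 7 NRF2 regulators were detected, with NFE2L2 at 31.5 ± 2.17 FPKM and KEAP1 at 14.4 ± 0.733 FPKM. KEAP1 RNA was thus present, and RNA levels say nothing of the function of its protein. Of 34 NRF2 targets 33 were detected and 29 lay above the detected-gene median, with a list median of 58.7 FPKM and a summed level of 21017 ± 201 CPM. After FTL, ALDH1A1 and FTH1 came the redox protein TXN (430.1 ± 52.5 FPKM) and the aldo-keto reductases AKR1B10 (410.2 ± 12.9 FPKM), AKR1C2 (404 ± 5.40 FPKM) and AKR1C3 (304 ± 6.68 FPKM). NQO1 (ENSG00000181019), a quinone reductase often used to gauge NRF2 activity, stood at 293, 289.9 and 295 FPKM in replicates 1, 2 and 3. The AKR1C genes are close copies, and AKR1C1 at 60.9 ± 4.23 FPKM may share reads with AKR1C2. SRXN1 was only at 2.77 ± 0.297 FPKM, with 84.95% of its exon bases shared. The pentose phosphate pathway, which supplies NADPH and is also under NRF2 control, was high as well, with PGD at 254 ± 8.05 FPKM, TKT at 88.97 ± 0.829 FPKM and TALDO1 at 84.8 ± 5.98 FPKM. TKTL1 was at 0.

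Respiratory RNA was uneven between the mitochondrial and the nuclear genome. The respiratory chain is built from subunits of both genomes. The 13 mitochondrially encoded protein genes had a median of 2075 FPKM and a summed level of 44789 ± 1844 CPM, from MT-ATP8 at 49.7 ± 12.02 FPKM to MT-CO1 at 11168 ± 409 FPKM. The 75 nuclear genes of complexes I and III to V had a median of 12.95 FPKM and a summed level of 3856, 3774 and 3932 CPM in replicates 1, 2 and 3. The 37 nuclear complex I genes had a median of 8.49 FPKM and the 38 genes of complexes III to V one of 18.5 FPKM, led by ATP5F1B at 235 FPKM. COX6B1 of complex IV was the most variable of all genes above 50 CPM, at 117, 103 and 65.1 FPKM in replicates 1, 2 and 3. All 21 genes of the tricarboxylic acid cycle were detected and 18 lay above the detected-gene median, with a list median of 13.7 FPKM and MDH2 the highest at 53.9 ± 1.42 FPKM. Nuclear respiratory genes therefore had a lower median than NRF2 targets and a higher one than the glycolysis list, whose median of 11.2 FPKM includes 7 tissue-restricted members at the floor. When members sharing exon bases are left out, the summed levels are 16093 CPM for NRF2 targets and 2113 CPM for the nuclear respiratory genes.

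Amino acid and lipid supply completed the picture. The leucine and glutamine exchanger SLC7A5 stood at 356, 342 and 349.5 FPKM in replicates 1, 2 and 3 and its partner chain SLC3A2 at 120.4 ± 4.88 FPKM. SLC1A5, which imports glutamine, was at 67.3 ± 2.45 FPKM. GLS2 was at 0 and ASNS, which makes asparagine, at 0.434 ± 0.134 FPKM, but 82.8% and 44.6% of their exon bases are shared with other genes. In serine synthesis PHGDH, the entry enzyme, was low at 1.19 ± 0.145 FPKM, below PSAT1 at 27.5 ± 1.61 FPKM and PSPH at 10.3 ± 0.395 FPKM. Of 17 genes of cholesterol synthesis and uptake all were detected and 13 lay above the detected-gene median, with the regulators SREBF1 at 48.2 ± 0.736 and SREBF2 at 20.2 ± 0.854 FPKM. Fatty acid synthesis was led by the desaturase SCD at 149.9 ± 7.85 FPKM, with ACLY at 71.1 ± 0.294 FPKM and FASN at 34.8 ± 1.71 FPKM. Of 10 hypoxia genes 9 lay above the median, including HIF1A at 103 ± 10.3 FPKM, NDRG1 at 105 ± 9.48 FPKM and the carbonic anhydrase CA9 at 31.2 ± 4.71 FPKM with 38.5% of its exon bases shared. Of 13 genes of the cytochrome P450 list 4 (30.8%) lay above the median, against 31.1% of all protein-coding genes. CYP24A1 (ENSG00000019186), which inactivates vitamin D, was the highest at 513, 512 and 486 FPKM, followed by CYP2S1 at 47.9 ± 5.11 FPKM and CYP1B1 at 47.7 ± 1.92 FPKM, while the hepatic CYP3A4 had 8, 3 and 4 counts and CYP2B6 and CYP1A2 were at 0.

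**Figure D4:**
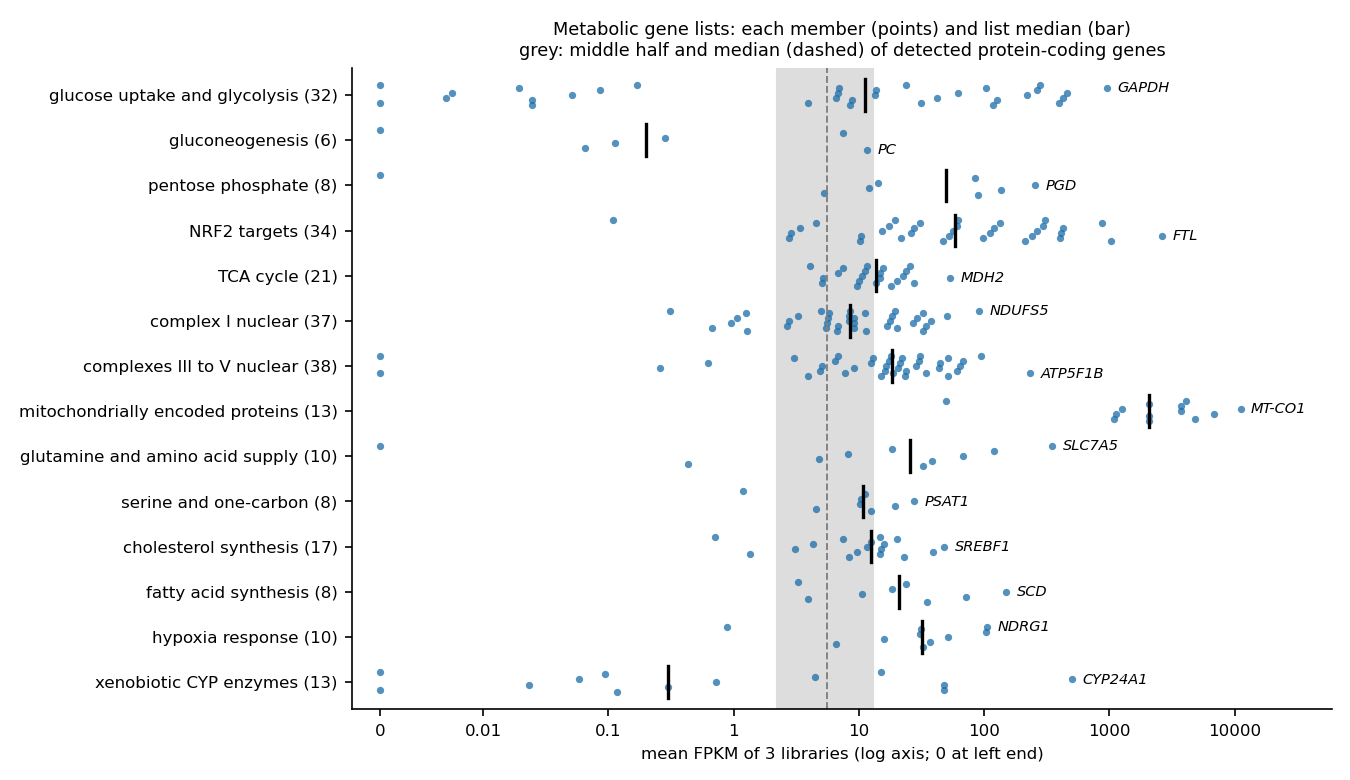
Mean FPKM of each member of 14 metabolic gene lists on a log axis, where dots are genes, bars are list medians, the grey band spans the quartiles of detected protein-coding genes (2.21 to 13.1 FPKM) and the dashed line is their median. The lists of mitochondrially encoded proteins (2075 FPKM), NRF2 targets (58.7 FPKM) and the pentose phosphate pathway (49.6 FPKM) have the highest medians.

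Much of the annotation was silent. Of the 58735 genes 29403 (50.1%) had 0 counts in every library, and 3384 of them were protein-coding (16.96% of that class). At most 3 counts in every library were found for 37275 genes, 4992 of them protein-coding. The silent protein-coding genes included most members of several families with a narrow tissue range. Olfactory receptors, which nasal neurons use, were at 0 in 348 of 386 cases, and keratin-associated proteins of hair in 81 of 94. Defensins, which are antimicrobial peptides, were at 0 in 42 of 45 cases, with the epithelial DEFB1 detected, and late cornified envelope genes of the epidermis in 16 of 18. Other families lay nearer the share of all protein-coding genes, with 40 of 374 solute carriers (10.7%), 73 of 514 ZNF genes (14.2%) and 5 of 39 HOX genes (12.8%) at 0. Of the clustered protocadherins 1 of 53 was at 0 and 16 were detected. Over the autosomes and the X chromosome the share of protein-coding genes at 0 ran from 10.5% on chromosome 15 to 33.8% on chromosome 21, with 26.9% on chromosome 11 and 30.2% on X. For some of these genes the annotation limits what can be counted. Of the 3384 protein-coding genes at 0, 278 (8.22%) have exons that lie wholly within exons of other genes, and 566 (16.7%) share over 50% of their exon bases, against 0 and 180 (1.45%) of the 12393 detected genes.

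The region around CDKN2A showed a run of genes at or near 0 between detected ones. CDKN2A (ENSG00000147889) codes for p16, an inhibitor of the kinases CDK4 and CDK6, and for p14ARF, and it lies on the minus strand of chromosome 9 from 21967753 to 21995301 on GRCh38. CDKN2A, its neighbour CDKN2B and the antisense genes CDKN2B-AS1 and CDKN2A-DT had 0 counts in every library. MTAP, a purine salvage gene that is often lost with CDKN2A, had 7, 8 and 8 counts in replicates 1, 2 and 3, which is 0.0312 ± 0.00296 FPKM. On the side of the chromosome end, IFNE had 63, 66 and 53 counts, KLHL9 1069, 1088 and 1156 counts, and MLLT3 971, 936 and 1090. On the centromere side, the lincRNA AL157937.1 had 255, 228 and 259 counts and DMRTA1 91, 109 and 109. The nearest detected genes were IFNE on 1 side, at 500.0 kb from CDKN2A between gene centres, and AL157937.1 on the other, at 227.8 kb. The interferon alpha genes and IFNB1 lie beyond IFNE. Of the other inhibitors of cyclin-dependent kinases, CDKN1A (p21) was at 83.8 ± 4.18 FPKM and CDKN1B (p27) at 30.5 ± 0.989 FPKM. The homozygous deletion known in this line lies in this region, but counts of RNA do not show the state of the DNA, and how much of this run it accounts for was not tested.

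**Figure D5:**
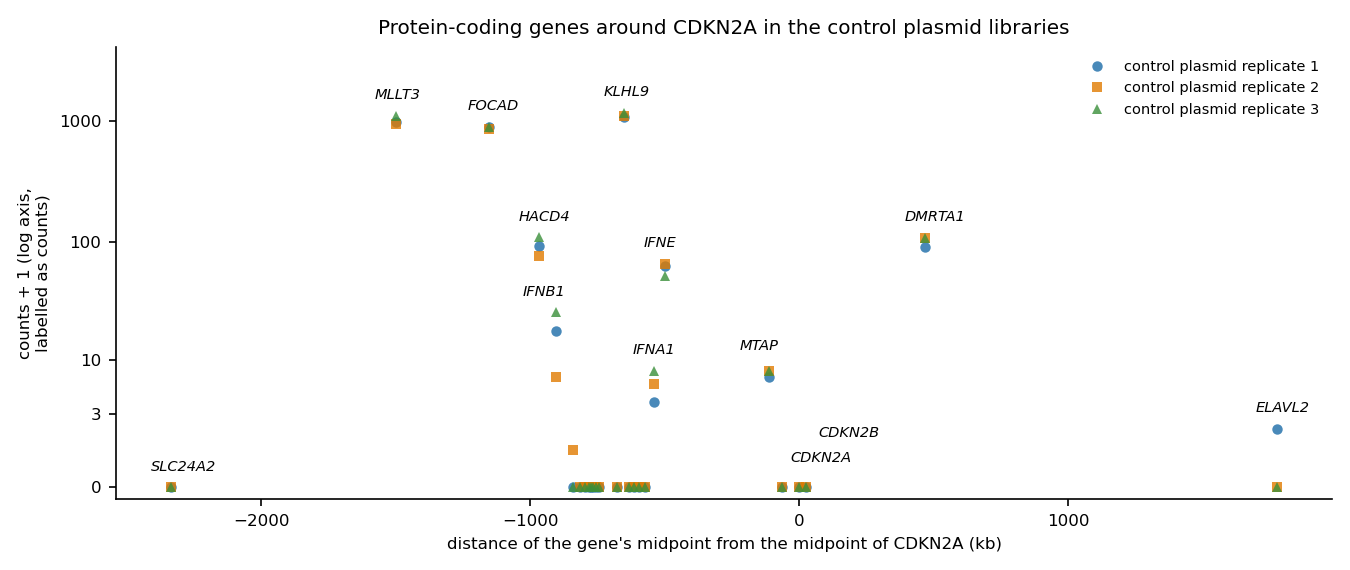
Counts of protein-coding genes in each of the 3 replicates, plotted as count plus 1 on a log axis, against the distance of the gene's centre from that of CDKN2A in kb. CDKN2A and CDKN2B are at 0, MTAP has 7 or 8 counts, and KLHL9 and DMRTA1 to the sides have from 91 to 1156.

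Noncoding RNA made up a small share of these poly-A libraries. Only 320 of 7629 lincRNA genes were detected, with a median of 1.51 FPKM, and they held 0.389% ± 0.0233 of the counts with the undetected members included. NORAD, which binds the PUMILIO proteins, was the highest lincRNA at 72.3 ± 3.85 FPKM, with MALAT1 at 61.97 ± 11.5 FPKM and NEAT1, the scaffold of paraspeckles, at 25.4 ± 1.85 FPKM. Pseudogenes held 0.612% ± 0.00575 of the counts, and TMSB4XP8, a processed copy of TMSB4X, had the most counts among them, a value that cannot be told apart from reads of its parent gene. The 18 lncRNAs of the study's risk models were low beside protein-coding genes. None exceeded the detected-gene median, which is that of protein-coding genes, 6 were detected and 6 were at the floor. For scale, 4.2% of all lincRNA genes and 6.6% of all antisense genes were detected. The highest were ABALON at 1.62 ± 0.405 FPKM, AC123595.1 at 1.41 ± 0.307 FPKM and AL606489.1 at 1.22 ± 0.233 FPKM, of which ABALON shares 74.8% of its exon bases with other genes. SFTA1P, a pseudogene of surfactant type, had 0, 0 and 2 counts. LINC00996 and AP001189.3, the lncRNAs carried by the other plasmids, had 9, 8 and 4 and 0, 2 and 1 counts here, which is 0.418 ± 0.164 CPM for LINC00996.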

How the data were processed

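Poly-A RNA of 3 A549 cultures or extractions labelled as control plasmid was sequenced by the authors in paired reads of 150 bases. The study's text speaks of extractions in triplicate, and a general text on DESeq2 in the supplement speaks of 2 biological replicates a condition. Whether the 3 libraries come from separate cultures is not given in the sources used here, so that SDs may be technical. Per the submitters' processing notes and the study's methods, reads were aligned with HISAT2 2.0.5 to GRCh38 and counted with featureCounts 1.5.0-p3. The strand setting is not given in the sources used here. Raw counts, 1 value a gene and library with no scaling, were deposited by the authors beside FPKM values of each library. The 6 count columns of the other plasmids were not used. The deposited FPKM values equal the FPKM computed here times 0.997, 0.995 and 0.990 in replicates 1, 2 and 3, and they served only for this check and for 1 alternative.

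CPM was computed on the library total, and FPKM from CPM and the deposited gene length, which equals the merged exon length of GENCODE 29 for 58735 of 58735 genes. Detection required a CPM of at least 1 in every library, and the floor was 3 counts of the library total. Exon bases shared with other genes were counted on either strand. No group was compared and no p-value was computed. The dispersion was estimated with edgeR 4.0.16 in R 4.3.3, with a biological coefficient of variation of 0.0728, and DESeq2 1.42.0 gave alternative size factors. All else was run in Python 3.11.15. The chi-square value per gene, the choice of the most variable genes and the dispersion were tested on simulated data. The other steps were not.

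The members and gene lists were chosen with earlier results of these data known. The text names the 20 genes with the highest mean CPM, the 20 nuclear protein-coding genes with the highest mean FPKM, the 10 most variable genes with a mean of at least 50 CPM, up to 8 top members of each list, its members at the floor or examples of them, its regulators and defining markers, and the lncRNAs and immune molecules of the study. Other genes named were chosen after their values were seen. Motifs were searched in RefSeq promoter windows matched by symbol. Alternatives were TMM and DESeq2 scaling, totals without mitochondrial genes, members without shared exon bases, other filters, thinning to the smallest library, deposited FPKM, CPM without length, and leaving out each replicate. Some genes of the lists are not reported here; they remain in the list totals and medians.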

Additional observations from a re-analysis of the deposited data

How the results depend on the processing

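Over the 11 results recomputed, 54 of 68 alternatives moved a value by less than 1 SD, or a count by less than 1.5 times. This is not a rate of robustness, because many of these alternatives could not, or could hardly, move a value further. Scaling by TMM or DESeq2 factors was among these for the 5 summed levels. Such factors keep the average library size about the same, so a mean over the libraries could hardly change. Both alternatives given next moved each of the 5 summed levels by more than 1 SD. With the library total taken without mitochondrially encoded genes, which makes it smaller, the summed levels were 31962 CPM for ISGs, 6410.4 CPM for NF-kB target cytokines, 19227 CPM for glycolysis, 22220.4 CPM for NRF2 targets and 4075 CPM for nuclear respiratory genes. Without the members that share exon bases with other genes, which leaves fewer genes to sum, they were 18573, 5880, 7908, 16093 and 2113 CPM. With no filter 29332 genes counted as detected. The share of the 100 most abundant genes was 18.7% without mitochondrially encoded genes, and the mitochondrial share was 4.55% without its ribosomal RNAs. The mean chi-square value per gene over the replicate pairs was 4.75. With 1 replicate left out only 1 pair remains, and the value lay between 3.21 and 6.70, highest without replicate 2. These values thus nearly repeat those of the single pairs given above. The cause of the differences between pairs was not tested. Leaving out a replicate kept the other results within the same limits, for example between 29962 and 30369 CPM for ISGs. For a mean over 3 libraries this could not come out otherwise. Dropping 1 of 3 values always moves their mean by less than 1 SD, so it is no check of stability.

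No paired analysis was possible because no groups were compared and no test was made.

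The depth of 16114345 to 17390680 counts limits what can be said of genes under the floor, and a gene at 0 is shown only to lie below it. Floors cover counting error only. Without a stated strand setting, overlapping and antisense genes cannot be told apart, and 6016 of the 12393 detected protein-coding genes (48.5%) share exon bases with another gene. FPKM uses 1 length per gene whatever transcripts were made, so that levels of different genes are compared only roughly. A single control plasmid, line and transfection reagent was examined, and RNA levels do not give protein levels or activity.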

Other observations

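Proliferation genes were well expressed. Of 28 proliferation genes 27 were detected and 26 lay above the median of 5.61 FPKM of detected protein-coding genes. Over all protein-coding genes the shares were 62.1% detected and 31.1% above that median. PCNA, the sliding clamp of DNA replication, stood at 233, 251 and 266 FPKM in replicates 1, 2 and 3, TOP2A at 65.1 ± 6.62 FPKM and MKI67 at 18.9 ± 0.691 FPKM. Among the D-type cyclins, CCND1 was at 52.6 ± 1.85 FPKM and CCND3 at 23.5 ± 0.331 FPKM, while CCND2 had 1, 0 and 1 counts. Of 79 cytosolic ribosomal protein genes 78 were detected, with a median of 94.5 FPKM and a summed level of 29076 ± 677 CPM. Among 21 lung cancer driver genes MET was the highest at 120.4 ± 5.37 FPKM, followed by EGFR at 59.4 ± 3.63 FPKM and MYC at 37.1 ± 0.596 FPKM. STK11 stood at 6.49 ± 0.417 FPKM and the chromatin remodeler SMARCA4 at 1.59 ± 0.231 FPKM. The receptor kinase ALK had 1, 0 and 1 counts.

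Cancer-testis antigens are normally made in germ cells only. Of 17 such genes 11 were at the floor and 2 were detected, PRAME at 57.2, 56.4 and 58.3 FPKM in replicates 1, 2 and 3 and MAGEA6 at 5.49 ± 1.06 FPKM. MAGEA3 was at 0.578 ± 0.143 FPKM. MAGEA3 and MAGEA6 are near-identical copies, so that the division of reads between them is uncertain. The hair keratin KRT81, outside the epithelial list, ranked 24 among nuclear protein-coding genes at 526, 473 and 583 FPKM.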
